A study of Mus musculus with 33 samples.

Results

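The 10 genes described here are markers of astrocytes and of Bergmann glia, the radial astrocytes of the cerebellum. They were chosen by name (Slc1a2, Slc1a3, Aqp4, Gja1, Gfap, Aldh1l1, Gdf10, Hopx, Timp4 and Fabp7) from 38393 features, and each was found once in every one of the 5 deposited count tables. The series holds 33 strand-specific libraries of polyadenylated RNA in 9 groups, all from frozen brain of C57Bl/6J males at 1 month of age. In experiment 1A, 4 cerebella in which Cyrano, a long noncoding RNA, carries a mutation of its miR-7 site (CyrMut) were set against 3 wild-type (WT) cerebella. In experiment 1B, 4 cerebella of Cyrano-/- mice (CyrKO) and 4 of Mir7a1-/-; Mir7b-/- mice (Mir7DKO) were set against the same 4 WT cerebella. In experiment 2, 3 Mir7DKO cerebella were set against 4 WT cerebella, and 3 Mir7DKO cortices against 4 WT cortices. No group carried a Cre or a transgene by its label, and the labels name no change at Mir7a2, the third miR-7 gene of the mouse. The submitters call the replicates biological but do not say which animal gave which tissue, so p-values measure the spread between these libraries.

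Astrocytes take up glutamate at synapses, buffer potassium, share ions and metabolites through gap junctions, and wrap blood vessels with endfeet rich in water channels. Bergmann glia sit beside Purkinje cells and send fibres through the molecular layer, where they ensheathe the synapses onto Purkinje dendrites. Cerebellar and cortical astrocytes share most of these functions but are known to use the genes for them at different levels. Slc1a2 (GLT-1) and Slc1a3 (GLAST) are the main glutamate transporters, with GLAST the one best known in Bergmann glia. Aqp4 is the endfoot water channel, Gja1 the gap junction protein connexin 43, Gfap an intermediate filament protein and Aldh1l1 a folate enzyme used as a general astrocyte marker. Gdf10 encodes a secreted protein of the TGF-beta superfamily, Hopx a homeodomain-only protein that binds no DNA itself, Timp4 an inhibitor of metalloproteinases, and Fabp7 a fatty acid binding protein of radial glia.

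Because one mutant lacks miR-7 genes and the others change the RNA that pairs with miR-7, the miR-7 seed and its matches in the 10 genes come first. The mature sequences from RefSeq are given 5′ to 3′ with the seed, bases 2 to 8, in capitals.
mmu-miR-7a-5p: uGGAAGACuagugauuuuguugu
mmu-miR-7b-5p: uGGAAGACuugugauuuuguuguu
Both share 1 seed, whose matches in a messenger RNA read GTCTTCC (7mer-m8), TCTTCCA (7mer-A1) or, where both overlap, GTCTTCCA (8mer). In the longest annotated 3′ UTR of each gene (GRCm38, GENCODE M21), 5 of the 10 genes held such a match, namely Aqp4 and Slc1a2 with 2 each and Gdf10, Timp4 and Gja1 with 1 each. Of 20446 protein-coding genes with a 3′ UTR, 23.4% held at least 1. These shares were not compared at like 3′ UTR length, and a longer 3′ UTR has more room for a match. The 3′ UTRs were 1720 to 9250 nt long in the 5 genes with a match and 277 to 2008 nt in the others. The matches are shown on the transcript strand with the matching bases in capitals, except those of Aqp4, whose sequence is not printed.
Gja1, 8mer, chr10:56389362-56389389, + strand: tcccacctttgtGTCTTCCAtatattat
Timp4, 7mer-m8, chr6:115245234-115245261, - strand: gcacctctgaaaGTCTTCCtggtttgtc
Slc1a2, 7mer-m8, chr2:102781919-102781946, + strand: cacacatgtgctGTCTTCCttaaagtgt
Slc1a2, 7mer-A1, chr2:102788027-102788054, + strand: tcttacattctcTCTTCCAcaaatcccc
Gdf10, 7mer-A1, chr14:33936519-33936546, + strand: gatcccgcccttTCTTCCAaatattaga
These are matches of letters and were not shown here to be bound. Slc1a3, Gfap, Aldh1l1, Hopx and Fabp7 held no match in their longest 3′ UTR.

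In the same annotation all 10 are protein-coding genes on separate loci. The transporter genes are Slc1a2 on chr2:102658659-102790784 (+ strand) and Slc1a3 on chr15:8634124-8710764 (- strand). Channel and junction genes are Aqp4 on chr18:15389496-15410982 (- strand) and Gja1 on chr10:56377330-56402513 (+ strand). The general markers are Gfap on chr11:102887336-102900912 (- strand) and Aldh1l1 on chr6:90486427-90600203 (+ strand). The Bergmann glia genes are Gdf10 on chr14:33923587-33937983 (+ strand), Hopx on chr5:77086988-77115121 (- strand), Timp4 on chr6:115241892-115252205 (- strand) and Fabp7 on chr10:57784881-57788450 (+ strand).

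Libraries held 6.89 to 24.94 M counts, and levels are given as CPM, the count as a share of the library's total after TMM scaling within the comparison, so the same library can differ by a few percent between comparisons. All 10 genes passed the filter on low counts in every comparison. Cyrano (1700020I14Rik) was at 74.7 to 88.3 CPM in CyrKO cerebella, against 1579 to 1970 CPM in WT cerebella. With its site mutated it was at 1924 to 1999 CPM in CyrMut, against 1557 to 1873 CPM in WT, a log2 change of 0.21 (adjusted p = 0.944). The gene Cdr1as, of the same network, was at 94.7 to 122 CPM in CyrMut, against 1044 to 1226 CPM in WT, as gene counts that do not separate circular from linear transcripts. The polyadenylated libraries do not count mature miR-7, so the Mir7DKO genotype was not checked. Markers of the choroid plexus, which lies against the cerebellum and secretes cerebrospinal fluid, varied widely between libraries of 1 group. Their summed level ran from 250.0 to 2491 CPM in CyrMut and from 193 to 846 CPM in WT of experiment 1A, and from 216 to 1478 CPM in Mir7DKO and from 214 to 261 CPM in WT cerebella of experiment 2. In bulk tissue, fewer cells of a type and less RNA per cell cannot be told apart.

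The largest differences among the 10 genes lay between tissues. In WT mice of experiment 2, cerebellum exceeded cortex in Gdf10, Timp4, Hopx, Aqp4, Slc1a3, Fabp7 and Gja1, and fell below it in Slc1a2 and Gfap. Thus 9 of 10 genes passed the test (7 higher, 2 lower), beside 74.7% of the 14001 genes tested, so the number that passed says little about these genes. Their median log2 difference was 1.26, beside 0.01 over all genes tested. Several of them were chosen as markers of Bergmann glia, which are cerebellar cells, so a lean toward cerebellum is partly built into the choice. The test was edgeR's quasi-likelihood F-test with Benjamini-Hochberg adjustment over all genes and a threshold of 0.05, and SE below is the standard error of the log2 value.

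The glutamate transporters took opposite orders in the 2 tissues. Slc1a3 was at 1621, 1599, 1550 and 1664 CPM in the 4 WT cerebella, against 628, 653, 661 and 615 CPM in the 4 WT cortices. Slc1a2 was at 1371, 1435, 1393 and 1397 CPM in WT cerebella, against 5183, 4993, 5139 and 4848 CPM in WT cortices. Neither gene's groups overlapped: every cerebellum was above every cortex for Slc1a3 and below it for Slc1a2. On the log2 scale Slc1a3 was 1.33 higher in WT cerebellum (SE 0.040, adjusted p = 5.68e-19), and Slc1a2 differed by -1.85 (SE 0.041, adjusted p = 1.53e-21). Slc1a2 is the transporter that clears most glutamate in the forebrain, and it stood first of the 10 genes in cortex per length of transcript.

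The water channel and the gap junction protein were both higher in cerebellum, by different amounts. Aqp4 was at 683, 627, 754 and 688 CPM in WT cerebella, against 198, 198, 198 and 191 CPM in WT cortices, a log2 difference of 1.81 (SE 0.049, adjusted p = 6.81e-20). Gja1 was at 330, 285, 312 and 302 CPM in WT cerebella, against 236, 233, 244 and 249 CPM in WT cortices, a log2 difference of 0.35 (SE 0.045, adjusted p = 2.49e-07). The lowest cerebellum was above the highest cortex for both genes. Gfap, which labels fibrous astrocytes and rises in injury, was at 123, 121, 123 and 110 CPM in WT cerebella, against 155, 152, 152 and 150 CPM in WT cortices. Every cerebellum was below every cortex, a log2 difference of -0.36 (SE 0.046, adjusted p = 2.89e-07).

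Aldh1l1, the gene used to label astrocytes of all regions, was the exception among the 10. It was at 46.1, 49.2, 48.7 and 48.8 CPM in WT cerebella, against 51.8, 50.6, 50.7 and 57.1 CPM in WT cortices. The groups did not overlap, as for 68.3% of genes, and the log2 difference of -0.12 (SE 0.059, adjusted p = 0.0621) missed the threshold. Its 95% interval, -0.25 to -0.00, excludes a difference as large as that of any other member.

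Among the Bergmann glia genes, Gdf10, Timp4 and Hopx showed the widest gaps of all members. Fabp7 had a smaller gap than Slc1a2, Aqp4 and Slc1a3. Gdf10 was at 165, 142, 136 and 149 CPM in WT cerebella, against 6.53, 6.76, 7.94 and 6.39 CPM in WT cortices, a log2 difference of 4.42 (SE 0.086, adjusted p = 1.66e-22). Timp4 was at 92.5, 91.3, 89.2 and 88.0 CPM in WT cerebella, against 14.7, 14.4, 15.3 and 16.5 CPM in WT cortices, a log2 difference of 2.57 (SE 0.066, adjusted p = 2.78e-20). For both genes the cerebella lay far above the cortices, and the spread within a tissue was small beside the gap. Hopx was at 88.3, 82.1, 67.2 and 67.6 CPM in WT cerebella, against 19.7, 17.5, 16.2 and 17.5 CPM in WT cortices, a log2 difference of 2.10 (SE 0.094, adjusted p = 1.58e-15). Fabp7 was at 26.5, 29.1, 43.8 and 44.4 CPM in WT cerebella, against 19.6, 18.2, 11.98 and 13.6 CPM in WT cortices, a log2 difference of 1.19 (SE 0.16, adjusted p = 4.20e-07). Fabp7 did not overlap between tissues but split into a lower and a higher pair of libraries within each.

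**Figure D1:**
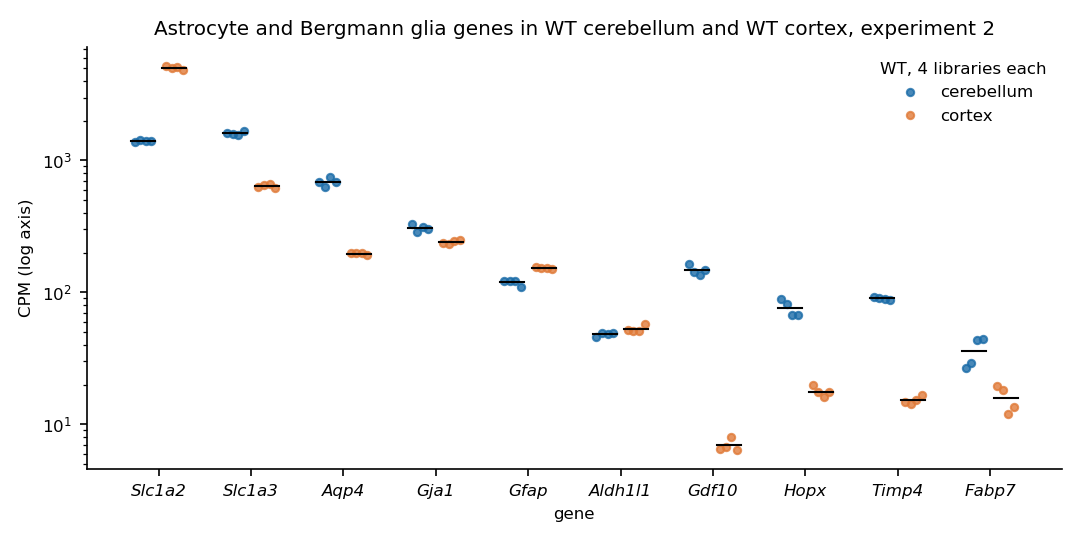
CPM on a log axis of each of the 10 genes in 4 WT cerebella (left of each pair) and 4 WT cortices (right), with the mean as a line. Gdf10 shows the widest gap, at 136 to 165 CPM in cerebella and 6.39 to 7.94 CPM in cortices, Slc1a2 is far lower in cerebella, and Aldh1l1 lies close in both.

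Divided by the merged exon length of the annotation, levels can be compared between genes, in CPM per kilobase. In WT cerebellum the order ran from Slc1a3 at 188 ± 5.56 through Aqp4 at 110 ± 8.31, Slc1a2 at 107 ± 2.02 and Hopx at 50.3 ± 6.99 CPM per kilobase (SD, n = 4). Next stood Gja1 at 30.0 ± 1.83, Fabp7 at 28.8 ± 7.57, Gdf10 at 28.4 ± 2.397 and Gfap at 28.2 ± 1.43 CPM per kilobase. Timp4 at 15.3 ± 0.347 and Aldh1l1 at 10.7 ± 0.310 CPM per kilobase were lowest. Aqp4 and Slc1a2 differed by less than their spread, as did the 4 genes from Gja1 to Gfap. In WT cortex the order ran from Slc1a2 at 384 ± 11.6 through Slc1a3 at 74.9 ± 2.54, Gfap at 36.1 ± 0.494, Aqp4 at 31.5 ± 0.540 and Gja1 at 23.5 ± 0.726 CPM per kilobase. Fabp7 at 12.7 ± 2.90, Hopx at 11.7 ± 0.9749 and Aldh1l1 at 11.6 ± 0.687 CPM per kilobase differed by less than their spread, and Timp4 at 2.58 ± 0.164 and Gdf10 at 1.33 ± 0.135 CPM per kilobase stood last. The merged length counts every annotated exon, so genes with long exons that these tissues leave out appear too low.

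The same contrast in Mir7DKO mice, whose libraries are separate from the WT ones, again had 9 of 10 genes past the test, 7 higher and 2 lower, with 68.2% of 14431 genes called. Groups did not overlap for 10 of 10 genes, beside 71.3% of all genes. The log2 differences of cerebellum over cortex in Mir7DKO were 4.03 for Gdf10 (SE 0.11), 2.48 for Timp4 (SE 0.085), 2.02 for Hopx (SE 0.098), 1.70 for Aqp4 (SE 0.072) and 1.26 for Slc1a3 (SE 0.059). They were 1.21 for Fabp7 (SE 0.096), 0.26 for Gja1 (SE 0.067), -0.25 for Gfap (SE 0.066) and -1.94 for Slc1a2 (SE 0.058). Aldh1l1 again missed the threshold, at -0.15 (SE 0.080, adjusted p = 0.102). The order of the 10 log2 differences in Mir7DKO was the one in WT.

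Lists of further genes place the 10 beside their pathways in the WT tissue contrast. The lists of cerebellar and of forebrain glia lean toward their own tissue by the way they were chosen. The counts below stand beside 74.7% of all genes called there, 5218 higher and 5237 lower, so that a list with most of its genes called is near the background. Of 11 measured genes of a Bergmann glia and cerebellar astrocyte list, 10 were higher and 1 lower in cerebellum, with a median log2 difference of 1.90. The protease inhibitor A2m was at 102 ± 7.11 CPM in WT cerebellum and 3.22 ± 0.951 CPM in WT cortex (SD, n = 4 each), a log2 difference of 4.99 (SE 0.11). The AMPA receptor subunit Gria4 was 2.04 higher (SE 0.043) and the sonic hedgehog pathway factor Gli1 2.43 higher (SE 0.16). The intermediate filament gene Vim, at 115 ± 4.27 CPM in WT cerebellum and 30.0 ± 0.353 CPM in WT cortex, was 1.93 higher (SE 0.056). Neurons also express several of these genes, Gria4 among them. Only the transcription factor Etv5 of this list was lower, by -0.74 (SE 0.074).

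All 7 genes of a forebrain astrocyte list were lower in WT cerebellum, with a median log2 difference of -1.52. The forebrain factor Lhx2 had 0 counts in the 4 WT cerebella, against 55.1 ± 2.99 CPM in the 4 WT cortices. Mfge8, a secreted bridge for phagocytosis, was at 37.8 ± 1.998 CPM in WT cerebellum and 109 ± 4.09 CPM in WT cortex, and differed by -1.52 (SE 0.055). Lhx2 is also expressed by forebrain neurons.

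Of the 34 pan-astrocyte genes, 17 were higher and 12 lower in WT cerebellum, beside 74.7% of all genes called, with a median of 0.14. Angiotensinogen (Agt) differed by 2.17 (SE 0.080), the calcium-binding S100b by 1.97 (SE 0.052), the cholesterol-esterifying Lcat by 1.65 (SE 0.087) and the bicarbonate cotransporter Slc4a4 by 1.57 (SE 0.043). The GABA transporter Slc6a11 differed by -1.47 (SE 0.051), the chaperone clusterin (Clu) by -1.11 (SE 0.038), Chrdl1, an astrocyte factor for synapse maturation, by -1.09 (SE 0.10) and the deiodinase Dio2 by -1.05 (SE 0.055).

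Among genes of glutamate and GABA uptake and recycling, 2 of 10 were higher and 5 lower in WT cerebellum, with a median of -0.30. The Purkinje cell transporter Slc1a6 differed by 4.33 (SE 0.086). The neuronal transporter Slc1a1 differed by -1.90 (SE 0.056), the cystine and glutamate exchanger Slc7a11 by -1.41 (SE 0.080) and glutamine synthetase (Glul), which turns the glutamate taken up into glutamine, by -0.76 (SE 0.042). Glul was at 778 ± 43.3 CPM in WT cerebellum and 1315 ± 34.7 CPM in WT cortex (SD, n = 4 each). Slc1a2 and Glul were thus both lower in cerebellum while Slc1a3 was higher.

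Of 9 genes of gap junctions and potassium handling, 7 were higher and 1 lower in WT cerebellum, beside 74.7% of all genes called in either direction, and the median was 0.61. The sodium pump subunit Atp1b2 was at 1932 ± 58.0 CPM in WT cerebellum and 637 ± 18.7 CPM in WT cortex, a log2 difference of 1.60 (SE 0.040). The connexin gene Gjc3, known mainly from oligodendrocytes, differed by 0.85 (SE 0.060), the chloride cotransporter Slc12a2 by 0.74 (SE 0.045), and Gjb2, a connexin of astrocytes and meninges, by -0.55 (SE 0.12). The genes that anchor the water channel at endfeet were divided, with 4 of 8 higher and 4 lower and a median of -0.11. Dystrobrevin (Dtna) differed by 0.83 (SE 0.041), while the basement membrane proteoglycan agrin (Agrn) differed by -1.14 (SE 0.050), beside the 1.81 of Aqp4 itself.

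Of 12 measured genes of 17 in a list of reactive astrocyte genes, 4 were higher and 6 lower in WT cerebellum (median -0.23). Vim was the most raised, and Cd44, an adhesion receptor, differed by 1.02 (SE 0.14). The serpin Serpina3n differed by -1.83 (SE 0.23) and was at 1.80 ± 0.750 CPM in WT cerebellum and 6.57 ± 0.820 CPM in WT cortex. Of relatives of the 10 genes, 2 of 10 measured were higher and 4 lower (median -0.10). Timp2, a family member of Timp4, was at 59.9 ± 2.12 CPM in WT cerebellum and 349 ± 6.54 CPM in WT cortex, a log2 difference of -2.54 (SE 0.044). Aldh1l2, the mitochondrial relative of Aldh1l1, differed by 2.23 (SE 0.096).

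**Figure D2:**
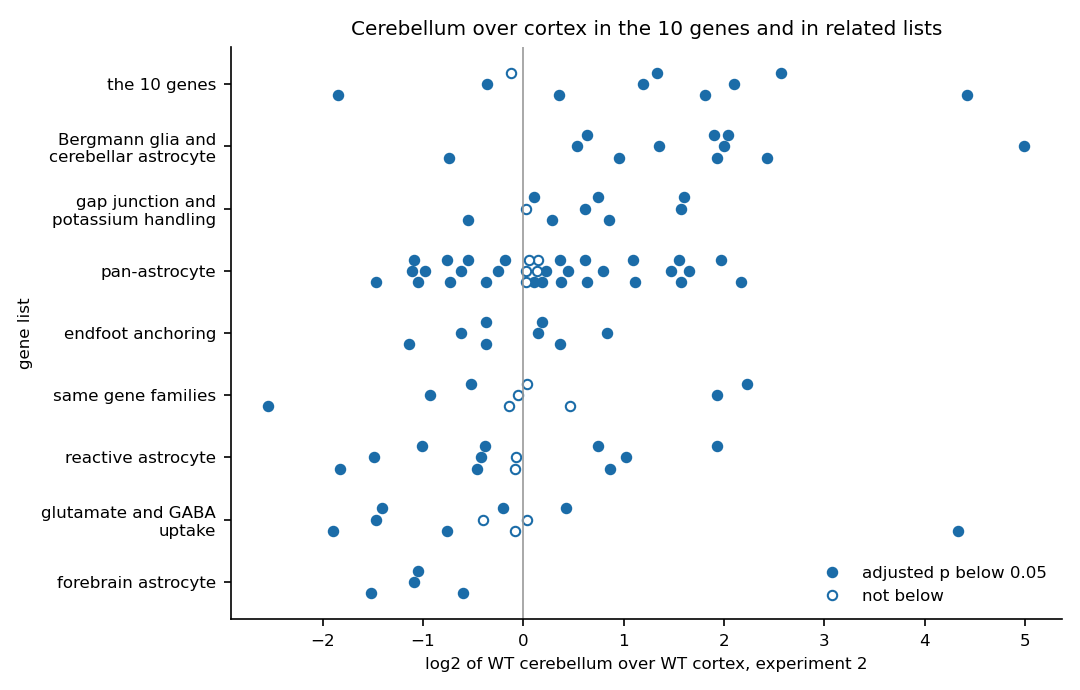
The log2 difference of WT cerebellum over WT cortex (x axis) for each measured gene of 9 lists (rows), filled where the adjusted p was below 0.05 and open elsewhere. The 10 genes run from -1.85 to 4.42, the Bergmann glia list lies mostly right of 0 and the forebrain list left of it. Points of genes below 0.1 CPM in a tissue, 4 in all, are left out.

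Markers of other cell types moved with tissue as well. Of the 6 granule cell and 6 Purkinje cell markers, all passed as higher in WT cerebellum, and 6 of 6 microglia markers passed as lower (median -1.87), as did 4 of 4 markers of oligodendrocyte precursors (median -1.08). Of the cortical projection neuron markers 5 of 6 passed as lower, while Neurod2 passed as higher, by 0.72 (SE 0.061). Oligodendrocyte markers were divided, from 0.37 for Ugt8a (SE 0.047) to -0.55 for Cldn11 (SE 0.064). The part of cell composition in the tissue differences of the 10 genes was not tested.

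In the mutants, none of the 10 genes passed edgeR's test in any of 5 comparisons. Of all genes, 0.00673% were called for CyrMut and 0.022% for CyrKO. For Mir7DKO the shares were 0.00713% in experiment 1B, 0.198% in the cerebellum of experiment 2 and 0.0436% in cortex, so almost no gene of any kind was called. DESeq2 also called 0 of the 10 in each. At an unadjusted p under 0.05 edgeR had 1, 0, 1, 2 and 3 of the 10 genes in those comparisons. The share of all genes at that unadjusted threshold was not set beside these counts, so they say little about the 10 genes. The median log2 change of the 10 was -0.05, 0.02, -0.05, 0.01 and 0.10 in the same order, with medians over all genes of 0.00 in each. CyrKO and Mir7DKO of experiment 1B share their WT libraries.

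The transporters and Aldh1l1 had log2 changes near 0. Slc1a3 ranged from -0.04 to 0.07 in log2 change over the 5 comparisons, and its widest 95% interval ran from -0.07 to 0.15, in CyrKO. Slc1a2 was at 5225, 5263 and 5491 CPM in Mir7DKO cortices, against 5056, 4885, 5028 and 4758 CPM in WT cortices. All 3 mutants were above all 4 WT libraries, with a log2 change of 0.11 (SE 0.043, adjusted p = 0.849), and in cerebellum its change ran from -0.07 in Mir7DKO of experiment 1B to 0.10 in CyrMut. Aldh1l1 was at 49.1, 49.4 and 48.7 CPM in Mir7DKO cortices, against 50.6, 49.5, 49.6 and 56.1 CPM in WT cortices, a change of -0.07 (SE 0.065, adjusted p = 0.927). Its change was -0.13 in CyrKO (SE 0.077, adjusted p = 0.707), where the groups overlapped. In Mir7DKO cerebellum of experiment 2 it was -0.10 (SE 0.069, adjusted p = 0.860), and -0.22 (SE 0.095, adjusted p = 0.506) with the choroid plexus markers' mean as a covariate.

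Aqp4 gave the clearest separation in cortex. It was at 224, 224 and 216 CPM in Mir7DKO cortices, against 193, 193, 194 and 188 CPM in WT cortices, and the groups stood apart. The log2 change was 0.21 (SE 0.047, adjusted p = 0.360, 95% interval 0.11 to 0.30). Aqp4 is among the genes with 2 seed matches to miR-7, and a part of these matches in the change was not tested. In cerebellum the change in Mir7DKO was -0.16 in experiment 1B (SE 0.076, adjusted p = 1) and 0.09 in experiment 2 (SE 0.062, adjusted p = 0.870), so it took both signs. With 1 library left out the change ran from -0.21 to -0.09 in experiment 1B, the -0.09 without Mir7DKO replicate 1, and from 0.04, without Mir7DKO replicate 3, to 0.16, without Mir7DKO replicate 1, in experiment 2. With the choroid plexus covariate the change of experiment 2 was 0.20 (adjusted p = 0.460). Choroid plexus markers summed to 258 to 275 CPM in the Mir7DKO cortices and 255 to 930 CPM in the WT cortices. Most of the Mir7DKO sum was Enpp2, at 242 to 258 CPM. The marker Ttr passed edgeR's test as lower, with a log2 change of -5.78 (adjusted p = 0.0413). It was at 1.94 to 3.90 CPM in Mir7DKO cortices and 3.31 to 317 CPM in WT cortices. The part of choroid plexus in the cortex values of Aqp4 and the other members was not tested. Gja1 was at 251, 269 and 244 CPM in Mir7DKO cortices, against 231, 228, 239 and 245 CPM in WT cortices, overlapping by 1 library, with a change of 0.11 (SE 0.050, adjusted p = 0.849).

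In Mir7DKO cortex 3 of 10 genes had groups that did not overlap (Aqp4, Slc1a2 and Aldh1l1), beside 6.99% of all genes, and 9 of 10 had a positive log2 change, beside 51.6% of all genes. These 9 changes ran from 0.03 for Gfap to 0.21 for Aqp4, and only Aqp4, Slc1a2 and Gja1 had 95% intervals above 0. The summed level of the 10 genes was 6643 to 6832 CPM in Mir7DKO cortices, against 6050 to 6357 CPM in WT cortices, and Slc1a2 makes up most of it. The 10 genes are not independent measurements, and no test over the list was made.

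Timp4 had the largest log2 change of the 10 genes in CyrMut, but did not pass the test. It was at 75.2, 80.8, 81.7 and 81.0 CPM in CyrMut cerebella, against 94.1, 95.2 and 94.7 CPM in WT cerebella. All 4 mutants lay below all 3 WT libraries, with a log2 change of -0.25 (SE 0.053, adjusted p = 0.707, 95% interval -0.36 to -0.13). It was the 1 of 10 genes without overlap in CyrMut, where 5.39% of all genes had none. Beside that share, the count says little about Timp4. Its lowest mutant value, 75.2 CPM in replicate 1, lay far from those of the other mutants. The change was -0.24 (adjusted p = 1) with the choroid plexus markers' mean as a covariate. CyrMut replicate 2, with a summed choroid plexus level of 250.0 CPM against 1681 to 2491 CPM in the other 3 mutants, had Timp4 at 80.8 CPM. That is 1 library, and the part of choroid plexus in the Timp4 values was not tested. Timp4 was at 98.1, 92.4, 97.1 and 103 CPM in WT of experiment 1B and its changes in the other 4 comparisons ran from -0.01 to 0.10.

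Fabp7 had the largest point change and the widest error. It was at 21.8, 38.7, 34.6 and 39.04 CPM in Mir7DKO cerebella of experiment 1B, against 50.1, 48.1, 54.5 and 35.0 CPM in the WT cerebella. The groups overlapped through WT replicate 4, and the log2 change was -0.47 (SE 0.17, adjusted p = 1). In experiment 2 the same genotype had 38.5, 43.0 and 40.2 CPM in Mir7DKO cerebella, against 27.1, 29.8, 44.8 and 45.2 CPM in WT cerebella, a change of 0.13 (SE 0.13, adjusted p = 0.916). With 1 library left out it ran from 0.02, without WT replicate 1, to 0.25, without WT replicate 4. The difference between those 2 changes was 0.61 (SE 0.26, adjusted p = 0.999). No gene passed that test of experiment 2 against experiment 1B (0% called by edgeR, 0 by DESeq2, 556 of 14532 genes at an unadjusted p under 0.05), and 2 of the 10 genes, Fabp7 and Aqp4, were among the 556.

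The 2 other Bergmann glia genes stayed within their spread in most comparisons. Gdf10 was at 130, 142 and 126 CPM in Mir7DKO cerebella of experiment 2, against 169, 146, 139 and 152 CPM in WT cerebella, a change of -0.19 (SE 0.065, adjusted p = 0.443). The groups overlapped, since the highest mutant exceeded the lowest WT library, and the change was -0.24 (adjusted p = 0.411) with the choroid plexus covariate. In cortex, where Gdf10 is low, it was at 6.10, 9.42 and 7.47 CPM in Mir7DKO, against 6.37, 6.61, 7.77 and 6.27 CPM in WT, a change of 0.21 (SE 0.16, adjusted p = 0.918). That change was 0.02 without Mir7DKO cortex replicate 2, the highest library, and up to 0.32 with another library left out. The Mir7DKO change in cerebellum minus that in cortex was -0.40 for Gdf10 (SE 0.17, adjusted p = 0.987), the largest of the 10. By edgeR or DESeq2 0 of 10 passed, with 0.155% of 14886 genes called. At an unadjusted p under 0.05 there was 1 of 10, a count that says little without the share of all genes beside it. The Gdf10 value was -0.22 without Mir7DKO cortex replicate 2, and ran from -0.51 to -0.22 over the libraries left out. The log2 change of Hopx was -0.13 in CyrKO (SE 0.075, adjusted p = 0.706) and -0.05 to 0.08 elsewhere.

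Gfap was at 136, 131 and 131 CPM in Mir7DKO cerebella of experiment 2, against 125, 124, 125 and 112 CPM in WT cerebella. All 3 mutants were above all 4 WT libraries, with a change of 0.13 (SE 0.056, adjusted p = 0.672). Gfap was the 1 of 10 genes without overlap there, beside 6.7% of all genes, and beside that share the count says little. The choroid plexus sums of those mutants were 1478, 1086 and 216 CPM, against 214 to 261 CPM in WT, and the mutant at 216 CPM had Gfap at 131 CPM. That is 1 library, and the part of choroid plexus in the Gfap values was not tested. With the choroid plexus markers' mean as a covariate the change was 0.11 (adjusted p = 0.771). In the other 4 comparisons the log2 change of Gfap was -0.07 to 0.04, and the 0.04 of CyrMut was 0.16 (SE 0.068, adjusted p = 1) with that covariate. No member was without overlap in CyrKO or in Mir7DKO of experiment 1B, where 4.05% and 2.54% of all genes were.

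**Figure D3:**
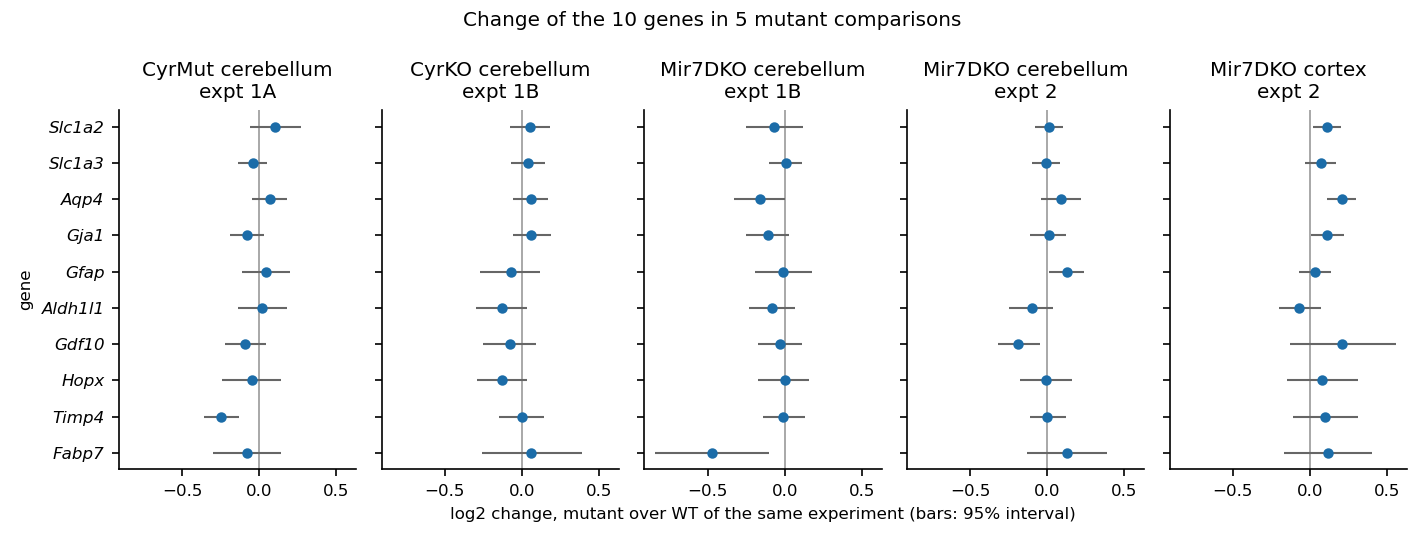
The log2 change of mutant over WT of the same experiment (x axis) with its 95% interval for the 10 genes (rows) in 5 comparisons (panels). Points lie between -0.47, for Fabp7 in Mir7DKO of experiment 1B, and 0.21, and none passed the adjusted threshold.

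**Figure D4:**
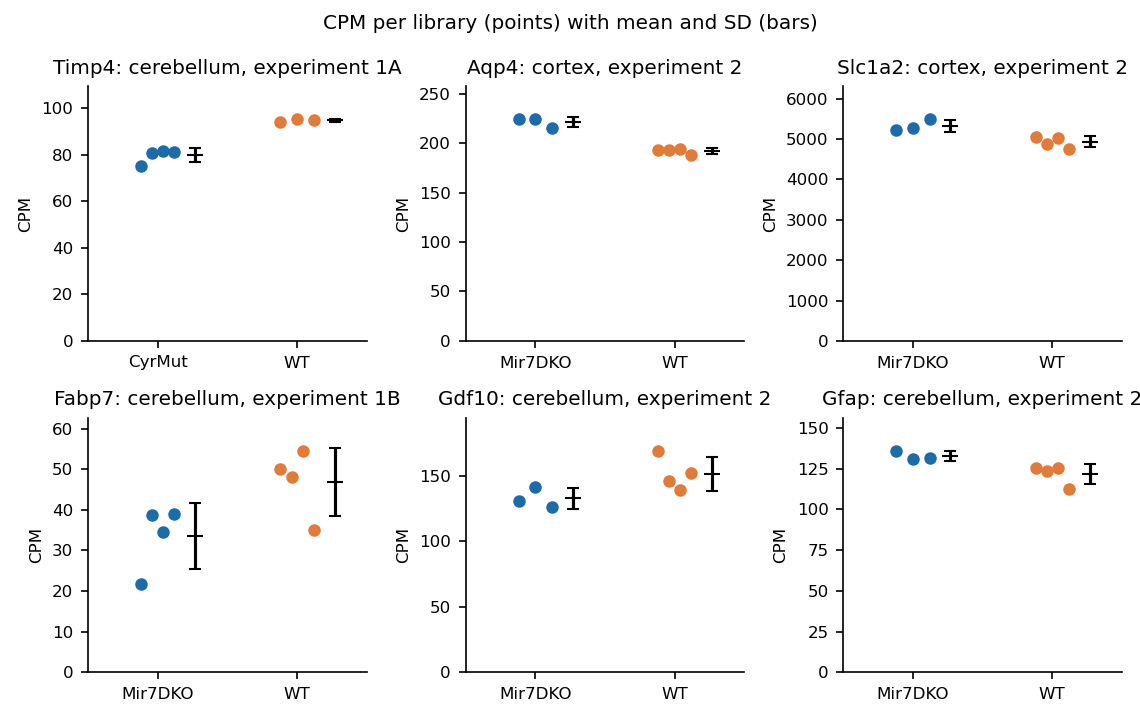
CPM in each library (points; mutants left, WT right) with the mean and SD beside them, for the members with the clearest or largest changes. The groups stand apart for Timp4 in CyrMut cerebellum, for Aqp4 and Slc1a2 in Mir7DKO cortex and for Gfap in Mir7DKO cerebellum of experiment 2, and overlap for Fabp7 and Gdf10.

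Other astrocyte genes were also nearly without calls in the mutants. Over the lists described for the tissue contrast, 0 genes passed in CyrMut, CyrKO, Mir7DKO of experiment 1B and Mir7DKO cortex. In Mir7DKO cerebellum of experiment 2, Nes, an intermediate filament gene of progenitors and vessels, was at 25.2 ± 2.24 CPM in Mir7DKO (n = 3) and 16.2 ± 3.59 CPM in WT (n = 4), a change of 0.62 (SE 0.12, adjusted p = 0.0315). In the same comparison 5 of 8 choroid plexus markers were called higher, and their part in the value of Nes was not tested. The Bergmann glia list had a median of -0.01 for CyrMut and 0.00 for CyrKO, and for Mir7DKO -0.06 in experiment 1B and 0.04 in both tissues of experiment 2. The reactive list had medians from 0.04 to 0.13, with 0 genes passing.

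The seed matches can be set beside the Mir7DKO changes, though an effect of the matches was not tested. The 5 genes with a match had a median log2 change of -0.07 in experiment 1B, 0.01 in cerebellum of experiment 2 and 0.11 in cortex. The 5 without a match had medians of -0.01, -0.01 and 0.07. All tested genes with a match (3555, 3569 and 3564) had medians of -0.001, 0.002 and 0.007. Those without a match (9571, 9616 and 9464) had medians of -0.000, -0.003 and 0.003. In cortex the changes of the genes with a match were 0.21 for Aqp4 and Gdf10, 0.11 for Slc1a2 and Gja1 and 0.10 for Timp4. When a library was left out, Gdf10 was at 0.02 to 0.32 and Aqp4 at 0.19 to 0.22. The 5 members without a match ran from -0.07 to 0.12 in cortex, with 4 above 0. In experiment 1B all 5 changes of the members with a match were below 0. Those without a match ran from -0.47 to 0.01 there, with 1 above 0.

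Over 11 WT cerebella of 3 experiments, scaled together, most of the 10 genes were steady. The coefficient of variation was 3.55% for Slc1a3, 3.72% for Aldh1l1, 3.86% for Timp4, 5.12% for Aqp4, 5.97% for Gja1, 6.61% for Gfap and 6.80% for Slc1a2, all under the median of 7.22% over 5026 genes of at least the level of the lowest member. It was 9.65% for Hopx, 11.6% for Gdf10 and 20.8% for Fabp7. Fabp7 ran from 27.1 to 54.1 CPM, and from 27.1 to 45.2 CPM within experiment 2 alone. Gdf10 differed by experiment, at 191 ± 4.32 CPM in experiment 1A (n = 3), 176 ± 12.8 CPM in 1B (n = 4) and 151 ± 12.8 CPM in 2 (n = 4). Wild-type libraries were made and sequenced anew in each experiment, so levels across experiments and batches cannot be told apart.

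**Figure D5:**
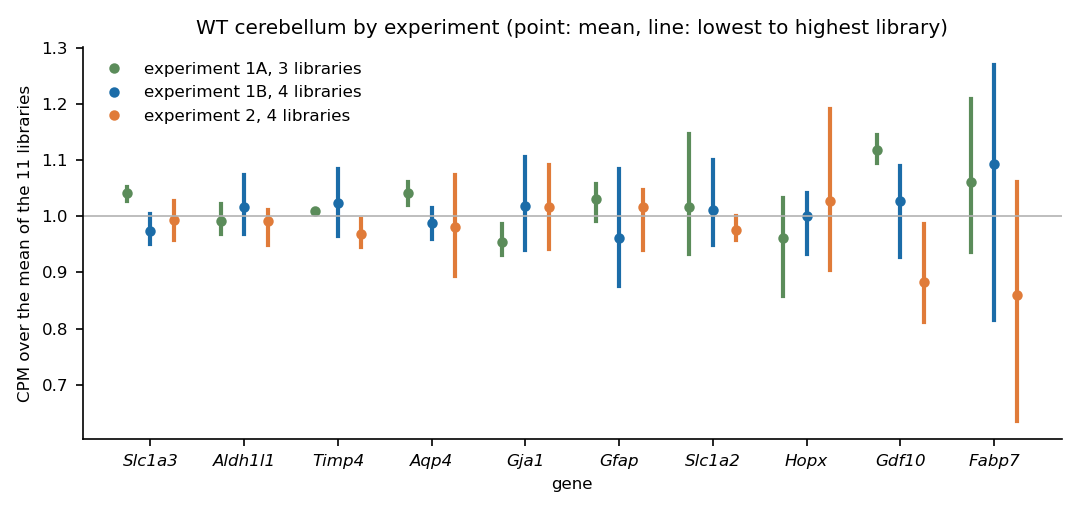
CPM over the mean of the 11 WT cerebella (y axis) for each gene, as the mean (point) and the range (line) of each experiment. Genes are ordered by coefficient of variation, from Slc1a3 at 3.55% to Fabp7 at 20.8%, and Gdf10 lies lowest in experiment 2.

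After centring each gene on its group mean over the 26 cerebellar libraries, the 10 genes did not vary as 1 unit. Aqp4 and Gja1 had a Pearson r of 0.72, Gdf10 and Timp4 of 0.65, and Slc1a2 and Hopx of -0.68, each the most extreme pair of its gene. These libraries share experiments and depth, and the r values are descriptions. With the mean of the other members, single members had r from -0.53 for Slc1a2 to 0.44 for Gja1. Likeness to the mean of the 10 is therefore not likeness to each of them. The genes most like the mean of the 10, among 11161 genes, were Kcne1l (r = 0.78), a potassium channel subunit gene, Nup62 (0.77), of the nuclear pore, Npas2 (0.76), a clock transcription factor, Vim (0.75) and asparagine synthetase, Asns (0.74). Within groups the SD on the log2 scale was lowest for Slc1a3, at 0.0338, and highest for Fabp7, at 0.289.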

How the data were processed

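The authors deposited whole-number read counts per gene for each library, per the file headers. DESeq2 1.10, HTSeq 0.6.1p1, STAR 2.4 and the builds mm10 and GRCm38 are named in the submitters' processing notes. The sources used here do not give the annotation release or how strand and multiply aligned reads were treated. In the deposited CyrMut table the record of Myo15 lacks 1 cell, so 1 count column reads as an expected count; the cell was put back. The 4 WT libraries of experiment 1B stand in both of its tables, with 1 count that differs and 0 among the 10 genes.

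Each comparison was fitted to its own libraries in R 4.3.3 by edgeR 4.0.16. Genes passed filterByExpr at a minimum count of 10, TMM factors scaled the libraries, and quasi-likelihood p-values were adjusted by Benjamini-Hochberg over all genes, at 0.05. SE is the log2 change divided by the root of F, and 95% intervals use the test's degrees of freedom. Differences between comparisons were interaction terms. The common biological coefficient of variation was 5.13% to 9.79%. Alternatives were DESeq2 1.42.0, RLE scaling, no filter, a replicate block, each library left out, larger fits and a choroid plexus covariate. The steps were tested on simulated data. The 10 genes, the lists and the naming rule were chosen with earlier results of these data known. The rule names all 10 genes, Cyrano and Cdr1as as genotype checks, at most 4 called genes per list and direction by size of change, and the 5 genes most like the mean of the 10. Some genes that the rule would name are not reported here.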

Additional observations from a re-analysis of the deposited data

Results flagged for a closer look

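In groups of 4 libraries, 60 sets of CPM values were checked for a library far from the other 3, and 2 were found, where chance gives about 1 in 20. Timp4 in CyrMut replicate 1 of experiment 1A was at 75.2 CPM, against 80.8 to 81.7 CPM in the other 3 mutants, and without it the log2 change was -0.22. Gfap in WT cerebellum replicate 4 of experiment 2 was at 112 CPM, against 124 to 125 CPM in the other 3 WT libraries.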

How the results depend on the processing

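The count of the 10 genes past the threshold was the same under every alternative run: 9 in both tissue contrasts and 0 in the mutant comparisons and interactions, the replicate block included. Of 1240 values of single genes under an alternative, 1163 kept their sign and side of the threshold and 77 changed sign, in genes whose changes were near 0; the cause was not tested. Replicate numbers gave no clear pairing of libraries: same-numbered libraries' deviations correlated at -0.22 to 0.31, and not every pair of any comparison exceeded 0.1. Such low values do not exclude shared animals or batches. Every pair correlated best with its own number in Mir7DKO cortex (3 of 3) and in the Mir7DKO tissue contrast (3 of 3), a hint from the data only.

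Over all genes, calls in CyrMut numbered 1, against 4 by DESeq2, 43 with no filter and 1 to 17 with a library left out. In CyrKO they were 3, against 10 with no filter and 3 to 10 with a library left out. In Mir7DKO of experiment 1B they were 1, against 3 by DESeq2, 4 with no filter, 2 with the replicate block and 0 to 2 with a library left out. In Mir7DKO cerebellum of experiment 2 they were 28, against 184 with no filter, 16 with the choroid plexus covariate, 55 with 14 libraries in 1 fit and 3 to 70 with a library left out. In Mir7DKO cortex they were 6, against 48 with no filter, 19 with the replicate block and 4 to 11 with a library left out. For the difference between tissues they were 23, against 13 by DESeq2, 74 with no filter and 1 to 48 with a library left out, and for that between experiments 0, against 19 with no filter and 0 to 1.

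Sign changes were as follows. With the replicate block, Hopx in CyrMut was 0.01, and in Mir7DKO cerebellum of experiment 2 Slc1a3 was 0.01, Timp4 -0.01 and Gja1 -0.00. With the choroid plexus covariate, Hopx in CyrMut was 0.04, and in Mir7DKO cerebellum of experiment 2 Slc1a2 was -0.01, Slc1a3 0.01, Hopx 0.10 and Timp4 -0.05. Timp4 in CyrKO was 0.00 with RLE scaling and 0.01 with 12 libraries in 1 fit. The Hopx difference between experiments was -0.00 by DESeq2, with RLE scaling, with no filter and with the replicate block.

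With a library left out, log2 changes in CyrMut ran from -0.02 to 0.06 for Aldh1l1, -0.16 to 0.03 for Fabp7, -0.02 to 0.08 for Gfap and -0.13 to 0.01 for Hopx. In CyrKO they ran from -0.06 to 0.17 for Fabp7, -0.13 to 0.01 for Gfap and -0.05 to 0.05 for Timp4. In Mir7DKO of experiment 1B they ran from -0.05 to 0.06 for Gfap, -0.06 to 0.05 for Hopx, -0.00 to 0.03 for Slc1a3 and -0.03 to 0.03 for Timp4. In Mir7DKO cerebellum of experiment 2 they ran from -0.03 to 0.06 for Gja1, -0.06 to 0.07 for Hopx, -0.02 to 0.03 for Slc1a2, -0.03 to 0.02 for Slc1a3 and -0.02 to 0.03 for Timp4, and in Mir7DKO cortex from -0.04 to 0.17 for Hopx. The difference between tissues ran from -0.08 to 0.03 for Aldh1l1, -0.10 to 0.13 for Fabp7 and -0.17 to 0.03 for Hopx. The difference between experiments ran from -0.07 to 0.03 for Aldh1l1, -0.06 to 0.08 for Hopx, -0.04 to 0.01 for Slc1a3 and -0.02 to 0.04 for Timp4. With 3 or 4 libraries a group, small changes could be missed. The threshold lay on the p adjusted over all genes, which is stricter than the 95% interval of 1 gene. Timp4 in CyrMut, at -0.25 (SE 0.053), thus did not pass edgeR's test (adjusted p = 0.707).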
